A study of Saccharomyces cerevisiae with 12 samples.

Results

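The comparison set budding yeast (Saccharomyces cerevisiae) whose Mot1 protein carries an FRB tag against the untagged parent strain, both grown without rapamycin. It used 4 of the 12 samples of the series, chosen by strain and treatment as the labels give them: 2 cultures of strain YGP200 (Mot1-FRB) and 2 cultures of strain HHY168 (wild type). The remaining samples were the same strains with rapamycin and another strain, YGP201, with an FRB tag on NC2β, the product of NCB2, without and with the drug. Cultures were inoculated from independent colonies in complete synthetic medium with 2% glucose, diluted, regrown and then kept for another 60 min, here with no drug. HHY168 is a host strain of the anchor-away system, so that what the system needs besides the tagged target was common to both sides. As background, such hosts lack the FKBP12 gene FPR1, carry a rapamycin-resistant TOR1 allele and hold a ribosomal protein fused to FKBP12. The sources used here do not say which end of Mot1 carries the tag or how many clones of YGP200 were made, so the strain may be a single clone. Each culture was hybridised on 1 two-colour array together with a reference shared by all arrays, made from RNA of the wild type grown without the drug. Culture a was labelled with Cy3 and culture b with Cy5 in every group, so the culture and the dye cannot be told apart.

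Mot1 is an ATPase that pulls the TATA-binding protein (TBP) off DNA and lets it settle elsewhere. Through this activity it both restrains transcription, often at regulated genes with TATA boxes, and is needed for the normal level of other genes. BUR6 and NCB2 encode NC2α and NC2β, which pair up as NC2 to hold TBP on DNA and block other initiation factors from joining it. In the anchor-away system the tagged protein is meant to work normally until rapamycin ties its FRB domain to FKBP12. The comparison of undrugged cells therefore asks what the tagged strain looked like before any depletion.

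All values are log2 ratios of a culture to the common reference, taken from the authors' deposited table and averaged over the 2 spots of each of 6388 gene probes. A difference is the mean of the Mot1-FRB cultures minus the mean of the wild-type cultures on that log2 scale, given with its standard error (SE) from limma. A probe was called where its Benjamini-Hochberg adjusted p over all probes was under 0.05. With 2 arrays a group, the number of arrays limits the precision, and the median SE of a difference was 0.062. Median culture signal was 412 to 1230 intensity units on the 4 arrays, and 95.6% to 99.5% of the probes lay above the blank spots. Cultures of one strain differed by a median of 0.057 (Mot1-FRB) and 0.059 (wild type) on the log2 scale. The 4 alpha-specific genes had signals between percentiles 81.9 and 99.9 of all probes, and the 7 a-specific genes between percentiles 6.39 and 19.9, the pattern of alpha cells in both strains. The 7 auxotrophic marker genes gave no call, and differences ran from -0.07 for LYS2 to 0.25 for MET17.

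The tagged gene itself came first. MOT1 stood at 0.74 and 0.72 in the Mot1-FRB cultures and at 0.0086 and -0.013 in wild type. The groups did not overlap, as in 51.9% of all probes. The transcript was 1.66-fold higher in the tagged strain (difference 0.73 ± 0.072, adjusted p = 0.000465). The call held under each of the 26 alternative settings tried. In RNA of a whole culture, more cells that express a gene and more of its RNA per cell cannot be told apart. In untreated NCB2-FRB, MOT1 read 0.20 and 0.12, below the Mot1-FRB cultures (adjusted p of that difference 0.00384). Whether the tagged transcript meets the MOT1 probe in the same way as the untagged one was not tested, and protein was not measured.

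The gene that lies next to MOT1 on its 3′ side moved the other way. SEN54, a subunit of the tRNA splicing endonuclease, stood at -0.47 and -0.55 in Mot1-FRB against 0.064 and -0.11 in wild type. It was 1.40-fold lower in the tagged strain (difference -0.49 ± 0.073, adjusted p = 0.00562), while NCB2-FRB read -0.033 and -0.047. Without culture b of Mot1-FRB or culture a of wild type the call was lost (adjusted p up to 0.0707). The next gene on that side, BRO1, had a difference of -0.0043 (adjusted p = 0.977). On the 5′ side, the ribosomal protein gene RPS9A had a difference of -0.19 (adjusted p = 0.0695), and YPL080C beyond it 0.0044 (adjusted p = 0.985). SEN54 was thus the 1 called neighbour among the 4 examined.

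**Figure D1:**
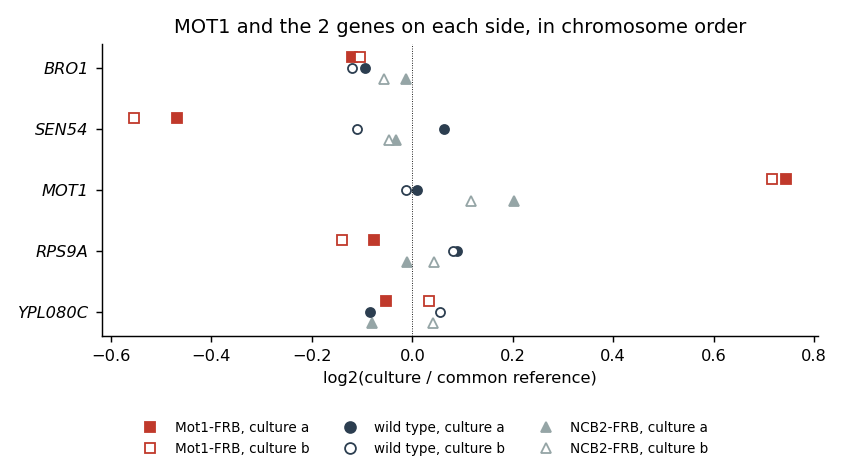
Log2 ratio to the common reference (horizontal axis) of MOT1 and the 2 genes on each side of it, in chromosome order, for both cultures of untreated Mot1-FRB (squares), wild type (circles) and NCB2-FRB (triangles). MOT1 sits at 0.74 and 0.72 in Mot1-FRB, SEN54 at -0.47 and -0.55, and the outer genes BRO1 and YPL080C overlap between strains.

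Among the proteins that act on TBP with Mot1, NCB2 was the other call. NCB2 stood at 0.43 in both Mot1-FRB cultures against -0.011 and 0.034 in wild type, with no overlap, as in 51.9% of all probes. Its transcript was 1.34-fold higher (difference 0.42 ± 0.050, adjusted p = 0.00175), a call lost from the scanner intensities with normexp (adjusted p = 0.461) and with print-tip loess without dye bias correction (0.0581). Its NC2 partner BUR6 had a difference of -0.0016 (adjusted p = 0.993), with a signal above the blanks on 3 of the 4 arrays. SPT15, which encodes TBP, had 0.15 ± 0.068 (adjusted p = 0.288). The TFIIA subunits TOA1 and TOA2, the TFIIIB subunit BRF1, TAF1 and the SAGA subunits SPT3 and SPT8 had differences from -0.075 to 0.032, none called. Of 10 genes on the list of TBP and its regulators, MOT1 and NCB2 were thus higher and none lower, beside 3.18% of all probes called higher and 1.03% called lower. None of 28 TFIID and general initiation factor genes and none of 16 SAGA genes was called, with medians of 0.0048 and -0.039, where all probes had a median of -0.0049.

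Across all probes, 203 were higher and 66 lower in untreated Mot1-FRB than in wild type, together 4.21% of the 6388. Most differences were small: 40 probes were higher by at least 1.5-fold and 7 by at least 2-fold, against 4 lower by at least 1.5-fold and 0 by at least 2-fold. Percentiles 5 and 95 of all differences were -0.17 and 0.26. In each of the 269 called probes the groups did not overlap, a state that 51.9% of all probes shared. Of the called probes, 267 were above the blanks on all 4 arrays and 5 were saturated on at least 1. A single gene symbol was given for 177 of the higher and 54 of the lower probes. At an unadjusted p under 0.05, 1119 probes differed.

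The number of calls depended on every one of the 4 arrays. Without culture a or b of Mot1-FRB the calls fell to 68 and 51 higher and to 11 and 11 lower, and without culture a or b of wild type to 66 and 47 higher and 21 and 8 lower. Centring the arrays on their external control spots left 213 higher and 15 lower, so that 93.4% of the calls were higher in place of 75.5%. Starting again from the scanner intensities with normexp and a global loess gave 55 higher and 7 lower, 88.7% higher. Of the 81 named genes called, 26 were also called from the scanner intensities both with normexp and global loess and with print-tip loess without dye bias correction. These were MOT1, SEN54, HSP26, YIR042C, PRY1, MED6, YLL053C, WSC4, RPI1, BNA4, PUT1, AGP1, YLR112W, GSC2, HO, BNA1, CLD1, STE3, HSP31, PHM8, SDH2, MET14, MET3, CAR2, ISU2 and TPO4. Each of the other 55 named genes lost its call in at least 1 of those settings, and 16 lost it under external control centring. The median difference of the genes on each nuclear chromosome lay between -0.022 and 0.0071, so no chromosome stood apart as a whole.

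**Figure D2:**
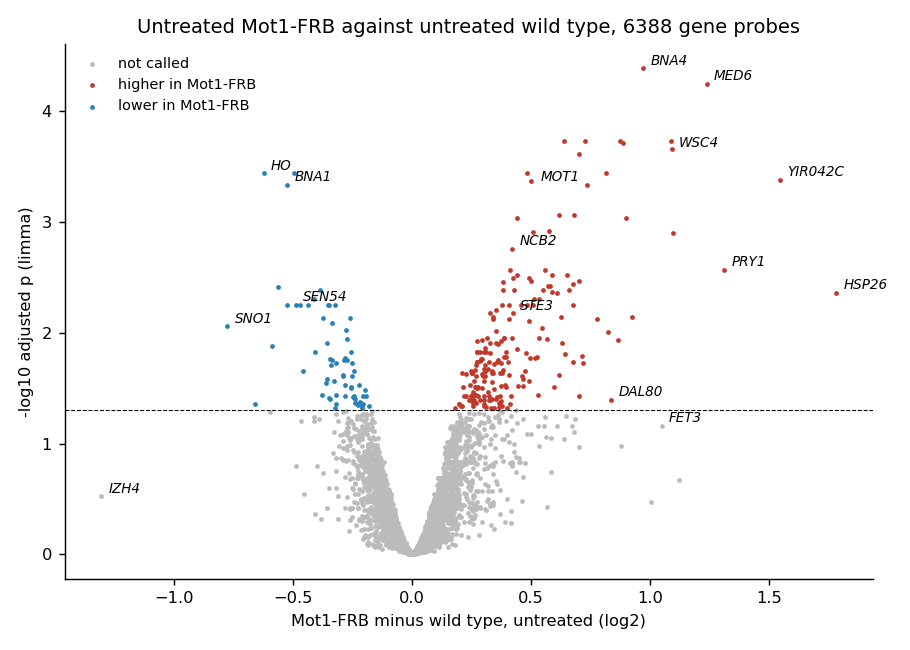
Difference between untreated Mot1-FRB and untreated wild type (log2, horizontal axis) against -log10 of the limma adjusted p (vertical axis) for 6388 gene probes, with the dashed line at an adjusted p of 0.05. The 203 higher probes reach 1.78 (HSP26), the 66 lower ones -0.78 (SNO1), and IZH4 and FET3 are large but below the line.

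HSP26 had the highest difference of any called probe. It encodes a small heat shock protein that holds unfolding proteins, and its promoter has been used to study Mot1. HSP26 stood at 1.59 and 2.01 in Mot1-FRB, 0.089 and -0.049 in wild type, and 0.34 and 0.0021 in NCB2-FRB. It was 3.44-fold higher than in wild type (difference 1.78 ± 0.25, adjusted p = 0.00437). The call was lost without culture b of Mot1-FRB or culture b of wild type (adjusted p up to 0.0551). Of the other promoters used in work on Mot1, BNA1 was called lower (below), and URA1 (-0.18, adjusted p = 0.291) and INO1 (0.067, adjusted p = 0.913) were not called.

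The uncharacterised reading frame YIR042C came next. It stood at 0.97 and 0.89 in Mot1-FRB and at -0.88 and -0.34 in wild type, and at -0.40 and -0.36 in NCB2-FRB. Wild-type culture a was the lowest of these 6 arrays. The difference was 1.54 ± 0.15 (adjusted p = 0.000421). PRY1, a secreted sterol-binding protein, stood at 1.33 and 1.36 against -0.065 and 0.13 and was 2.48-fold higher (adjusted p = 0.00273). NCB2-FRB lay between the other strains at PRY1, with 0.61 and 0.30. YLL053C and AQY2 are neighbouring reading frames of an aquaporin gene that is split in laboratory strains. YLL053C read 1.31 and 1.35 against 0.089 and 0.38 (difference 1.10 ± 0.13, adjusted p = 0.00126), and AQY2 had a difference of 0.92 ± 0.15 (adjusted p = 0.00721). NCB2-FRB was also above wild type in value at both frames, 0.61 and 0.98 at YLL053C and 0.50 and 0.84 at AQY2, and the tagged strains did not pass the test against each other there (adjusted p = 0.0687 and 0.139). The AQY2 call was lost without culture b of Mot1-FRB or culture a of wild type (adjusted p up to 0.0856).

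MED6 was called higher in both tagged strains. MED6 is a subunit of the head of Mediator, the complex that links activators to RNA polymerase II. It stood at 1.20 and 1.45 in Mot1-FRB and at 1.23 and 1.38 in NCB2-FRB, against 0.066 and 0.11 in wild type. The difference from wild type was 1.24 ± 0.079 in Mot1-FRB (adjusted p = 5.73e-05) and 1.22 in NCB2-FRB (adjusted p = 0.000137), both against the same 2 wild-type arrays. The difference between the tagged strains was 0.022 ± 0.079 (adjusted p = 0.945). No other of the 25 measured Mediator genes was called, and their median difference was -0.024.

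WSC4, of the Wsc family of wall stress sensors, read 0.91 and 1.00 in Mot1-FRB against -0.14 and -0.12 in wild type and was 2.13-fold higher (adjusted p = 0.000222). RPI1, a putative regulator linked to wall strength, read 0.97 and 1.06 against -0.14 and -0.015 and was 2.13-fold higher (adjusted p = 0.000186). GSC2, an inducible glucan synthase, had a difference of 0.86 ± 0.15 (adjusted p = 0.0117), a call lost whichever of the 4 arrays was omitted (adjusted p up to 0.111). Of 20 cell wall integrity genes measured, WSC4 and GSC2 were higher (10%, beside 3.18% of all probes) and none lower, with a median of 0.063. NCB2-FRB read 0.082 and 0.061 at WSC4, 0.37 and 0.19 at RPI1, and 0.25 and 0.32 at GSC2. In the direct limma test between the tagged strains, WSC4 and RPI1 were called (adjusted p = 0.00125 and 0.00246) and GSC2 was not.

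The kynurenine route from tryptophan to NAD held calls in opposite directions. BNA4, kynurenine 3-monooxygenase, had the smallest adjusted p of all probes. It stood at 0.84 and 0.75 in Mot1-FRB against -0.15 and -0.20 in wild type, a 1.96-fold higher level (difference 0.97 ± 0.056, adjusted p = 4.15e-05). BNA1, the dioxygenase 2 steps further along the route, stood at -0.74 and -0.72 against -0.18 and -0.24 and was 1.44-fold lower (difference -0.53 ± 0.052, adjusted p = 0.000468). Both differed from NCB2-FRB too, by 0.89 (adjusted p = 4.94e-05) and -0.36 (adjusted p = 0.00752). The other 9 of the 11 NAD and kynurenine genes were not called, and the list median was 0.038. The calls made up 9.09% of the list in each direction, beside 3.18% of all probes called higher and 1.03% lower.

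Of the remaining genes among the 15 highest, YLR112W and YER053C-A are reading frames of no known function to be named here. YLR112W read 0.87 and 0.97 in Mot1-FRB against 0.093 and 0.010 in wild type (difference 0.87 ± 0.068, adjusted p = 0.000186). YER053C-A had a difference of 0.82 ± 0.14 (adjusted p = 0.00988), lost whichever of the 4 arrays was omitted (adjusted p up to 0.0937). PHD1, a regulator of filamentous growth, and TPO4, a polyamine exporter on the drug resistance list, were each the 1 called member of their lists, with differences of 0.78 ± 0.12 and 0.70 ± 0.094. TPO4 was not called against the common reference itself (adjusted p = 0.0938). PHD1 was not called against that reference either (adjusted p = 0.0614), nor from scanner intensities (0.199 with normexp and 0.0819 with print-tip loess). It also lost its call without culture b of Mot1-FRB or culture a of wild type.

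**Figure D3:**
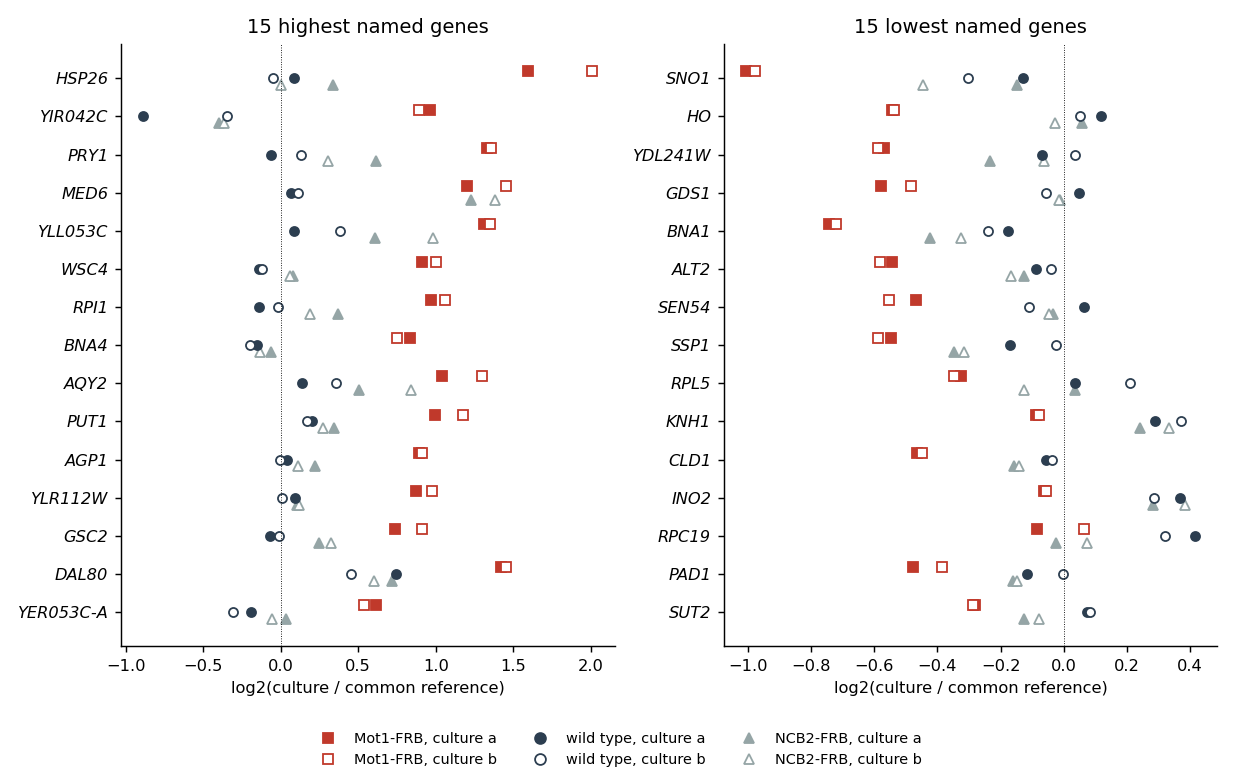
Log2 ratio to the common reference (horizontal axes) of the 15 highest and 15 lowest named genes, for culture a (filled) and culture b (open) of untreated Mot1-FRB (squares), wild type (circles) and NCB2-FRB (triangles). The genes were chosen among called probes, so the Mot1-FRB squares lie outside the wild-type circles in all 30, as they do in 51.9% of all probes. At MED6 the NCB2-FRB triangles (1.23 and 1.38) lie with Mot1-FRB (1.20 and 1.45), and at RPC19 NCB2-FRB is also near Mot1-FRB.

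Genes for poor nitrogen sources, which are shut off in rich nitrogen (nitrogen catabolite repression), held 9 higher calls. They were 9 of 30 measured (30%, beside 3.18% of all probes), none was lower, 27 had a difference above 0, and the median was 0.25. PUT1, proline oxidase, read 0.99 and 1.17 in Mot1-FRB against 0.20 and 0.17 in wild type (difference 0.90 ± 0.098, adjusted p = 0.000922). AGP1, a broad amino acid permease, read 0.89 and 0.91 against 0.039 and -0.0057 (0.89 ± 0.073, adjusted p = 0.000194). CAR2, ornithine transaminase of arginine breakdown, read 0.65 and 0.74 against -0.15 and -0.083 (0.81 ± 0.076, adjusted p = 0.000367). At these called genes the cultures of the strains did not overlap, as in all 269 called probes and 51.9% of all probes. DAL80, a GATA repressor of the same genes, read 1.42 and 1.45 against 0.74 and 0.46 (0.84 ± 0.19, adjusted p = 0.0404), and its call was lost whichever of the 4 arrays or the untreated NCB2-FRB arrays was omitted (adjusted p up to 0.266). The other 5 calls, CAR1, PRB1, MEP3, PUT4 and UGA1, were named after their values were seen and had differences of 0.46 to 0.72. Against NCB2-FRB, 7 of the 30 were higher, beside 1.58% of all probes in that test. The NCB2-FRB median difference from wild type was 0.056 over the list.

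Environmental stress genes under Msn2 and Msn4 held 6 higher calls. They were 6 of 49 (12.2%, beside 3.18% of all probes), none was lower, 42 had a difference above 0, and the median was 0.33, falling to 0.090 where Mot1-FRB was set against the common reference itself in place of the wild-type arrays. Besides HSP26, the calls were DDR2, a stress-induced gene of unclear function (0.72 ± 0.14, adjusted p = 0.0189), YGP1, a secreted glycoprotein made on starvation (0.72 ± 0.13, adjusted p = 0.0163), and STF2, linked to survival of drying (0.64 ± 0.12, adjusted p = 0.0155). The trehalose synthase gene TPS1 (0.35) and the mitochondrial superoxide dismutase gene SOD2 (0.47) were the others, named after their values were seen. DDR2 and STF2 lost their calls whichever of the 4 arrays was omitted, and YGP1 without Mot1-FRB a or b or wild type b (adjusted p up to 0.172). DDR2 and HSP26 also differed from NCB2-FRB (adjusted p = 0.0166 and 0.0106), whose median over the list was 0.070. The list of heat shock factor chaperone genes had a median of -0.012 (-0.29 against the common reference itself), with 2 of 27 higher (7.41%: HSP31 0.68 and PIC2 0.63) and 2 lower (HCH1 -0.29 and AHA1 -0.25). HCH1 and AHA1 activate the Hsp90 ATPase, HSP31 is a glyoxalase-type stress protein, and PIC2 carries copper and phosphate into mitochondria. PIC2, HCH1 and AHA1 lost their calls whichever of the 4 arrays was omitted and HSP31 without Mot1-FRB a or wild type b (adjusted p up to 0.245).

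Several metabolic lists held 2 to 5 higher genes each, to be read beside the 3.18% of all probes called higher. Of 31 methionine and sulfate assimilation genes, 4 were higher (12.9%) and none lower (median 0.083): MET14, adenylylsulfate kinase (0.56 ± 0.071, adjusted p = 0.00275), MET3, ATP sulfurylase (0.54 ± 0.090, adjusted p = 0.00901), the permease gene MUP1 (0.34) and the sulfite reductase gene MET5 (0.27). All 4 were also higher than in NCB2-FRB (adjusted p = 0.00627 to 0.0386), and 5 of the list were, beside 1.58% of all probes in that test. Of 27 ergosterol genes, 5 were higher (18.5%) and none lower (median 0.12), with ERG3 at 0.41 ± 0.061 (adjusted p = 0.00562), ERG27 at 0.39, ERG24 at 0.32, ERG5 at 0.29 and ERG2, named after its value was seen, at 0.26. Of 37 respiratory chain genes, 4 (10.8%) were higher, COX5B (0.46), NDI1 (0.40), SDH2 (0.35) and SDH4 (0.27), with a list median of 0.026. In the retrograde list 2 of 9 (22.2%) were higher, IDH1 of the TCA cycle (0.38) and pyruvate carboxylase PYC1 (0.34), though the list median of 0.17 was -0.0028 against the common reference itself. PHM8 (0.66 ± 0.093, adjusted p = 0.00413) and the vacuolar phosphatase gene PHO8 (0.31) were the calls among 20 phosphate genes (10%). Among the genes of this paragraph MET14 and PHM8 kept their calls whichever array was left out, whereas ERG3 lost its own without Mot1-FRB b or wild type b, and MET3 without Mot1-FRB b or either wild-type culture. Each of the others lost its own without at least 3 of the 4 arrays (adjusted p up to 0.285), except ERG2, for which arrays were not left out.

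Of 26 measured iron genes under Aft1, 4 were higher (15.4%, beside 3.18% of all probes) and 1 lower (3.85%, beside 1.03%) (median 0.10, and 0.12 for NCB2-FRB against the same wild-type arrays). The iron-sulfur scaffold gene ISU2 stood at 0.48 and 0.42 in Mot1-FRB against 0.024 and -0.0064 in wild type (0.44 ± 0.048, adjusted p = 0.000928) and was also higher than in NCB2-FRB (adjusted p = 0.0222). The ferric reductase FRE1 was higher by 0.53 (adjusted p = 0.0112) and FRE4 by 0.41 (adjusted p = 0.0241), while NCB2-FRB had uncalled differences of 0.40 and 0.50. ISU1 was higher by 0.33 (adjusted p = 0.0483), and ENB1, a siderophore transporter named after its value was seen, was the 1 lower gene (-0.32, adjusted p = 0.0187). FET3, the high-affinity iron oxidase, read 0.95 and 1.04 in Mot1-FRB, 0.93 and 0.92 in NCB2-FRB and -0.037 and -0.065 in wild type, yet its difference of 1.05 ± 0.28 was not called (adjusted p = 0.0692). FRE1 lost its call without Mot1-FRB a or b or wild type b, and FRE4 and ISU1 whichever of the 4 arrays was omitted (adjusted p up to 0.277).

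Of 122 ribosomal protein probes, none was higher and 3 were lower (2.46%, beside 1.03% of all probes), while 90 lay below 0 and the median was -0.10 (-0.12 to -0.030 over the alternatives). RPL5, which carries 5S rRNA into the large subunit, stood at -0.32 and -0.35 in Mot1-FRB against 0.036 and 0.21 in wild type (-0.46 ± 0.092, adjusted p = 0.0222). RPS9B (-0.36) and RPS11B (-0.35) are members of paralog pairs, and a probe may not tell such near-identical transcripts apart. Of 49 ribosome biogenesis genes, 43 lay below 0 (median -0.092) with UTP5 the 1 call (-0.23), but against the common reference itself that median was 0.11. All 3 ribosomal calls and UTP5 were lost without at least 3 of the 4 arrays. External control centring, which shifted the median of all probes by 0.058, ended all 4 calls (adjusted p from 0.0521 to 0.321). Scanner intensities with normexp ended them too (adjusted p = 0.980 for RPL5, 0.841 for RPS9B, 0.854 for RPS11B and 0.385 for UTP5). With print-tip loess without dye bias correction, RPL5 kept its call (adjusted p = 0.0425) and the others lost theirs. Of 20 genes on the cyclin list 3 were higher (15%, beside 3.18% of all probes): the B-type cyclin CLB1 (0.38 ± 0.051, adjusted p = 0.00347) and the replication genes RNR1 (0.37) and POL1 (0.21), which are not cyclins. The histone gene HHF1 was higher by 0.25 (adjusted p = 0.0221), the 1 call among 10 histone genes. CLB1 kept its call whichever array was left out but lost it from scanner intensities (adjusted p = 0.334 with normexp and 0.0788 with print-tip loess), and RNR1, POL1 and HHF1 lost theirs whichever of the 4 arrays was omitted (adjusted p up to 0.284). None of 32 proteasome genes was called, and their median was -0.013.

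**Figure D4:**
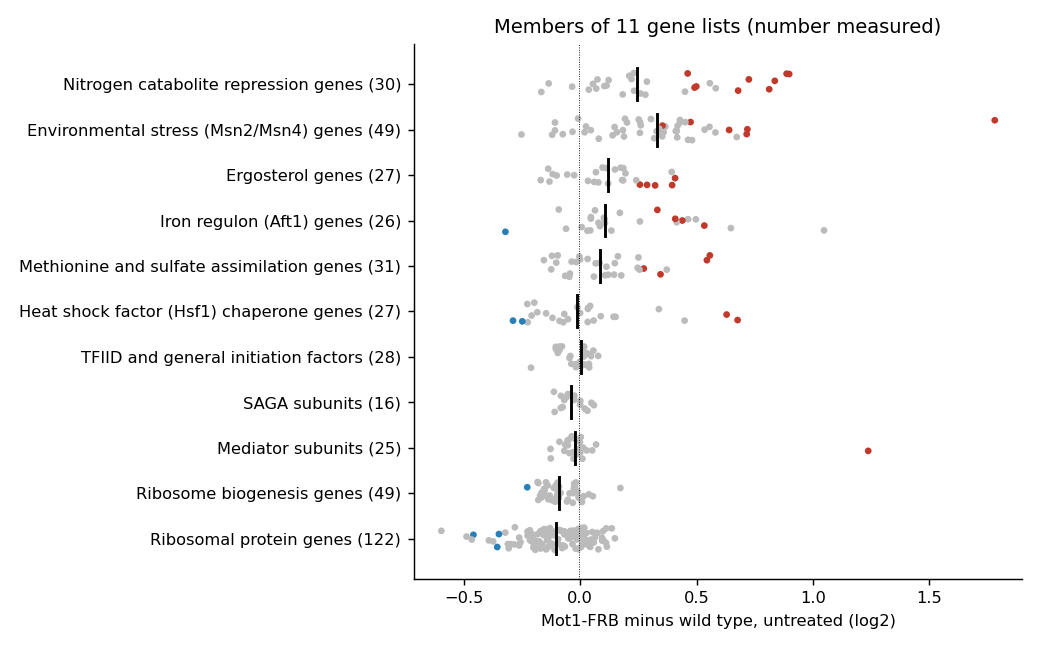
Difference between untreated Mot1-FRB and wild type (log2, horizontal axis) of each member of 11 gene lists, with the number measured in brackets, called members in red (higher) or blue (lower), the list median as a black bar and the median of all probes as a dotted line. The nitrogen list has 9 red members and a median of 0.25, the stress list 6 and 0.33, and the initiation factor and SAGA lists have none.

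The lower calls were fewer and smaller. SNO1, of pyridoxine metabolism, had the lowest difference with a symbol: it stood at -1.01 and -0.98 in Mot1-FRB against -0.13 and -0.30 in wild type (-0.78 ± 0.13, adjusted p = 0.00879). Its call was lost without Mot1-FRB a or b or wild type a (adjusted p up to 0.0766). HO, the mating-type switching endonuclease, stood at -0.54 and -0.54 against 0.12 and 0.050 and was 1.54-fold lower (-0.62 ± 0.059, adjusted p = 0.000367), with NCB2-FRB at 0.058 and -0.029. ALT2, the less active paralog of alanine transaminase, stood at -0.54 and -0.58 against -0.089 and -0.041 (-0.50 ± 0.046, adjusted p = 0.000367). INO2, an activator of phospholipid genes, stood at -0.061 and -0.057 against 0.37 and 0.29 (-0.39 ± 0.054, adjusted p = 0.00413), and was the 1 call among 20 phospholipid genes. HO, ALT2 and INO2 kept their calls whichever array was left out. ALT2 lost its own from scanner intensities (adjusted p = 0.255 with normexp and 0.0581 with print-tip loess), and INO2 with print-tip loess (0.132) and against the common reference itself (0.294).

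The others among the 15 lowest were GDS1 (-0.53), YDL241W (-0.56), SSP1 of spore formation (-0.47), KNH1 of glucan synthesis (-0.41), the cardiolipin phospholipase CLD1 (-0.41), PAD1 (-0.37), the sterol uptake regulator SUT2 (-0.36) and RPC19, a subunit shared by RNA polymerases I and III (-0.38). KNH1 and RPC19 were not called where Mot1-FRB was set against the common reference itself (adjusted p = 0.186 and 0.927). Their lower calls thus depended on the wild-type arrays. RPC19 rested on the least signal: it was above the blanks on only 2 of the 4 arrays, its NCB2-FRB values were -0.025 and 0.073 against -0.084 and 0.064 in Mot1-FRB, and its call was lost whichever of the 4 arrays or the untreated NCB2-FRB arrays was omitted (adjusted p up to 0.229). Each of the other 7 was lost without at least 1 of the 4 arrays (adjusted p up to 0.174).

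STE3, the a-factor receptor of alpha cells, was the 1 call among 4 alpha-specific genes (25%, beside 3.18% of all probes called higher). It stood at 0.48 and 0.56 in Mot1-FRB against 0.16 and 0.035 in wild type (0.42 ± 0.066, adjusted p = 0.00673), a call lost without Mot1-FRB b or wild type b (adjusted p up to 0.0832). None of 7 a-specific genes was called, and their differences ran from -0.037 to 0.031. In the haploid and pheromone list, RME1 (0.30) and STE18 (0.21) were higher and HO and PRM5 (-0.32) lower, of 27. That was 7.41% in each direction, beside 3.18% of all probes higher and 1.03% lower. RME1, STE18 and PRM5 lost their calls whichever of the 4 arrays was omitted (adjusted p up to 0.263).

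Some of the largest differences were not called. IZH4, a zinc-linked membrane protein, read -2.14 and -2.20 in Mot1-FRB and -0.59 and -1.14 in wild type, but -1.93 and 0.41 in the NCB2-FRB cultures. Its difference of -1.31 ± 0.61 did not pass the test (adjusted p = 0.298). VEL1 (1.12, adjusted p = 0.213), YOR387C (1.00, adjusted p = 0.334), ARO10 (0.88, adjusted p = 0.106) and GRE2 (0.70, adjusted p = 0.108) were likewise not called. The copper and zinc list, without a call among 16, had a median of 0.20 (0.055 without wild-type culture b and 0.29 without culture a), with ZRT1 at 0.57 and ADH4 at 0.46.

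The remaining lists held at most 1 call in each direction. The branched-chain transaminase BAT2 (0.48 ± 0.072) was higher and ARG2 of arginine synthesis (-0.28 ± 0.053) lower among 47 Gcn4 genes, with a median of -0.015. The repressor NRG1 (0.41) was higher and the ammonium exporter gene ATO3 (-0.35) lower among 27 glucose-repressed genes. Single higher calls were HPT1 of purine salvage (0.31) among 18 purine genes, the meiotic kinase SMK1 (0.24) among 23 early meiosis genes, the wall gene SUN4 (0.29) among 11 daughter-specific genes and COS7 (0.20) among 11 subtelomeric genes. SNO1 was the 1 call among 17 genes of the thiamine list. Each of these 8 genes beside SNO1 lost its call without at least 2 of the 4 arrays (adjusted p up to 0.268). No call fell among 9 anchor-away and TOR genes, 14 seripauperin and TIR genes, 16 hexose transporter and sensor genes, 18 glycolysis genes, 8 galactose genes, 11 pyrimidine genes and 25 translation factor genes, whose medians ran from -0.07 to 0.068.

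A tagged strain that is not Mot1-FRB showed far fewer calls against the same wild-type arrays. NCB2-FRB against wild type gave 2 calls (0.0313% of all), MED6 higher (0.0157%) and NCB2 itself lower (0.0157%, difference -0.67), and 248 probes at an unadjusted p under 0.05. Since both comparisons use the same 2 wild-type arrays, the direct test of Mot1-FRB against NCB2-FRB was read instead: 101 probes were higher and 21 lower (1.58% and 0.329% of all, together 1.91%). That test uses the same 2 Mot1-FRB arrays as the comparison with wild type, so genes found in both are not independent findings.

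The same probes were examined in the other 4 arrays of the 2 strains, grown with 1 µg/ml rapamycin for 60 min, where Mot1-FRB is meant to be tied outside the nucleus. These arrays did not enter the untreated difference, but they share the fit's estimate of the spread, and treated and untreated cultures may stem from the same colonies. Treated Mot1-FRB against treated wild type called 62.1% of all probes, 31.5% higher and 30.6% lower. All 203 probes higher without the drug were also called higher with it, and their median difference went from 0.37 to 1.13. Of the 66 lower probes, 58 were also called lower with the drug and 63 lay below 0, and their median went from -0.32 to -0.50. The difference was larger in value with the drug for 200 of the 203 and for 48 of the 66. The untreated calls made up 10.1% of the treated higher calls and 2.97% of the treated lower calls. Treated wild-type culture a gave a dim array, with 71.3% of its probes above the blanks. Without it 99.5% of the higher and 82.1% of the lower calls were called alike with the drug, against 100% and 87.9% with it. Whether a probe's difference changed with the drug was not tested.

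Named genes followed that pattern to different extents. HSP26 had a difference of 4.21 with rapamycin, WSC4 3.06, YIR042C 2.92, CAR2 2.84 and BNA4 2.22, each larger than the 1.78, 1.09, 1.54, 0.81 and 0.97 found without it. HO read -1.36 and BNA1 -1.12 with rapamycin, against -0.62 and -0.53. MOT1 read 1.56 and NCB2 1.31 with the drug. Other genes stood at nearly the same difference in both conditions: SNO1 -0.80, SEN54 -0.56, PAD1 -0.35 and YDL241W -0.63 with rapamycin. INO2 was not called with the drug (-0.12, adjusted p = 0.0764), and neither was RPC19 (-0.11, adjusted p = 0.283). AHA1 (0.33), YGR039W (0.16) and JEM1 (0.16), the last a DnaJ-type chaperone of the endoplasmic reticulum, were lower without the drug and higher with it.

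**Figure D5:**
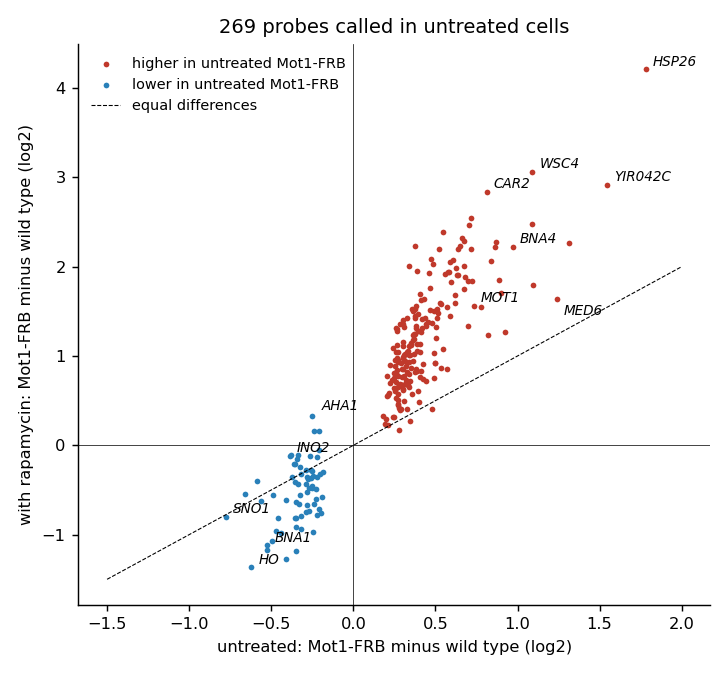
Difference between Mot1-FRB and wild type without rapamycin (log2, horizontal axis) and with it (log2, vertical axis) for the 269 probes called without the drug, higher ones in red and lower ones in blue, with a dashed line where both differences are equal. All 203 red points lie above 0 on the vertical axis and 200 lie above the line, while 3 blue points are called higher with rapamycin.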

How the data were processed

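The 4 arrays compared are untreated Mot1-FRB a and b and untreated wild type a and b, one array a culture. Per the labels' protocols, an Agilent G2565BA scanner and the Imagene program produced the spot values. The authors' deposited log2 ratios of culture to reference came from print-tip LOESS (span 0.4) on gene probes without background subtraction, followed by a gene-specific dye bias correction, per the labels' protocols. The deposited normalized intensities of both channels gave those log2 values back with a largest difference of 4.99e-06. The deposited scanner intensities were used for signal levels and as alternatives. Because the value table removes dye bias per gene, the arrays of a group may agree more closely than raw ratios do.

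The 2 spots of a probe were averaged, and dim probes were kept. In R 4.3.3 with limma 3.58.1, 6 group means were fitted over 12 arrays (6 residual and 4.25 prior degrees of freedom, two-sided moderated tests, no block), with Benjamini-Hochberg adjustment over 6388 probes. The spread is thus shared between groups, including the treated wild-type culture a array, which was dim (71.3% of its probes above the blanks). Cultures came from independent colonies, per the labels' design text. A probe was above the blanks where its signal exceeded percentile 95 of blank spots, and saturated above 32768. Of 6388 probes, 5326 have 1 gene symbol and 1062 none, from the platform annotation, which can be old; neighbours of MOT1 came from the RefSeq gene table. The fit was tested on simulated data before use. Genes named were MOT1, NCB2, BUR6, SPT15, the 2 genes on each side of MOT1, the 15 highest and 15 lowest called probes with a symbol and the same sign in both letters, and up to 4 called or 2 uncalled members of each of 43 lists. The comparison, lists and named-gene rule were chosen with earlier results of these data known. Figures were drawn with Python 3.11.15, matplotlib 3.10.9 and pandas 2.3.3. Alternatives were other starting values, centring, arrays in the fit, the letter as a block, a filter on dim probes, array weights, another prior, the reference as control, single spots and each array left out.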

Additional observations from a re-analysis of the deposited data

Results flagged for a closer look

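Of the 81 named genes called against wild type, 38 also differed between the tagged strains. The test was the direct limma test of untreated Mot1-FRB against untreated NCB2-FRB (adjusted p under 0.05 over all probes). That test called 1.91% of all probes. Among all probes called against wild type, 87 of the 203 higher and 18 of the 66 lower passed it in the same direction. Many of the 81 were chosen for large differences in the same Mot1-FRB arrays. The values here are Mot1-FRB minus NCB2-FRB on the log2 scale, and as the wild-type mean cancels, they equal the difference of the 2 strains' differences from wild type. Higher in Mot1-FRB were HSP26 (1.63), YIR042C (1.31), WSC4 (0.89), BNA4 (0.89), PRY1 (0.88), YLR112W (0.81), PUT1 (0.78), CAR2 (0.77), AGP1 (0.74), RPI1 (0.73) and the tagged gene MOT1 (0.57). Also higher were DDR2 (0.82), HSP31 (0.55), MET3 (0.51), MET14 (0.50), PHM8 (0.48), STE3 (0.46), HPT1 (0.41), MUP1 (0.39), HHF1 (0.35), PYC1 (0.34), MET5 (0.29), SDH2 (0.29), ERG5 (0.29), ISU2 (0.27) and STE18 (0.24). NCB2 was higher by 1.09, which joins a higher value in Mot1-FRB and a lower one in the strain where NCB2 itself is tagged. Lower in Mot1-FRB were SNO1 (-0.69), HO (-0.55), GDS1 (-0.52), SEN54 (-0.47), YDL241W (-0.43), ALT2 (-0.42), INO2 (-0.39), KNH1 (-0.37), BNA1 (-0.36), RPS9B (-0.36) and PAD1 (-0.28). Both tests use the same Mot1-FRB arrays, so passing both is not independent support. The named genes MED6, YLL053C and AQY2 did not pass this test. Groups of 2 arrays are too small for a search for single outlying samples.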

How the results depend on the processing

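Of 81 named genes called, 17 kept their call under all 26 alternatives: MOT1, YIR042C, PRY1, MED6, YLL053C, WSC4, RPI1, BNA4, PUT1, AGP1, YLR112W, HO, BNA1, PHM8, MET14, CAR2 and ISU2. Counts against wild type (203 higher, 66 lower) moved to 55 and 7 from scanner intensities with normexp and global loess, 62 and 13 with print-tip loess without dye bias correction, 351 and 132 with the 4 arrays alone, 356 and 145 with the 6 untreated arrays alone, 355 and 166 with array weights, and 870 and 749 against the common reference itself. Centring on external controls left 15 lower. Against NCB2-FRB (101 and 21), the same settings gave 10 and 1, 34 and 4, 214 and 62 (6 arrays) and 220 and 63 (weights), external controls 46 higher, the trended robust prior 48 higher and the first spot alone 66 higher. NCB2-FRB against wild type (1 and 1) gave 4 higher with 6 arrays and 0 lower with normexp.

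Each letter is also 1 dye orientation. Deviations of same-letter arrays correlated by 0.0109 to 0.55 over 15 pairs of groups, 0.276 for the groups compared, with 9 above 0.1. All 15 lay above 0, so arrays of one letter shared some deviation. The main fit nevertheless did not use the letter. With the letter as a replicate block, 263 were higher and 115 lower against wild type, and 45 lower against NCB2-FRB. Of the named genes, ISU1 lost its call (adjusted p = 0.0503), and TIR3 (0.0463) and GAL80 (0.0468) gained one. With the replicate block and 6 untreated arrays alone, 498 and 254 differed from wild type, 337 and 154 from NCB2-FRB, and 6 were higher in NCB2-FRB than in wild type.

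Leaving out 1 array gave 47 to 264 higher and 8 to 96 lower against wild type, 24 to 150 and 3 to 28 against NCB2-FRB, and 1 to 4 and 1 to 2 for NCB2-FRB. The share of higher probes called alike under rapamycin, a comparison chosen after seeing the data, stayed between 98.5% and 100%, and that of lower probes between 76.2% and 90.9%. No named gene changed sign in a called setting except against the common reference itself, where URA1 read 0.25, SAG1 0.31, RPN4 -0.19 and PYC1 -0.20. UTP5 (0.054, limma adjusted p = 0.343) and COS7 (-0.098, 0.0517), called in the main fit, also changed sign there but were not called. The cause of these shifts was not tested. Signal over background of 8.25 to 21.6 on the 4 arrays limits weak probes such as RPC19 and BUR6.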
